A study of Mus musculus with 13 samples.

Results

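The 32 genes described here are 30 effector genes of neutrophils and macrophages and 2 transcription factors with roles in myeloid cells, Gfi1 and Irf8. The products of the effector genes fill the granules, arm the oxidase and sense microbes in mature phagocytes. All 32 are called members or effector genes below unless the regulators are set apart. They were chosen by name, by function, with earlier results of these data known, and all 32 were found in the annotation. Each was joined to the candidate C/EBPα regions whose centre lay within 100 kb of its transcription start site (TSS). This gave 57 of the 17899 candidate regions of the only list in the series, and the same count was made for all 22359 protein-coding genes. The study kept only a small part of its LSK candidates as high-confidence regions, and that filtered set was not used here.

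C/EBPα is a basic leucine zipper transcription factor that binds DNA as a dimer at words close to TTGCNNAA. It is required for the step from common myeloid progenitors to granulocyte and monocyte progenitors, and several granule protein genes are well known targets of C/EBP factors in later, committed cells. The granule genes are switched on in waves: primary granule proteins in promyelocytes, secondary and tertiary granule proteins afterwards. LSK cells, in contrast, are lineage-negative, Sca-1 and c-Kit positive bone marrow cells, a mixture of hematopoietic stem cells and, in the main, multipotent progenitors that stand upstream of these steps. The comparison therefore asks how many C/EBPα candidate regions lay around the effector genes and the regulators in LSK cells, and how strong these regions were. Whether the members are expressed in LSK cells was not examined here.

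The list was deposited for 1 ChIP-seq library made with a C/EBPα antibody (Santa Cruz 14-AA) from sorted LSK cells (whether others entered the call is not stated), and 12 other samples of the series were not analysed here. The strain label of the library is C57BL/6 cebpa flox/flox;Mx1Cre. Mx1Cre is a recombinase under an interferon-responsive promoter, which the study activated with pIpC in adult mice, and the study calls mice of this cross Cebpa Δ/Δ after that treatment. The library carries no genotype label, and the same strain label stands on histone libraries labelled wild type and on those labelled knock out, so whether the cells behind the list carried an intact Cebpa cannot be told apart from the labels. A list of regions holds no expression values, so the LSK identity of the cells could not be checked against marker genes. There is no replicate for any value. The list holds no read numbers, and the mapped reads that the study gives for its libraries were not used here, so no depth stands behind a value. Each region has a score, for which the negative log10 of the p-value given by MACS is multiplied by 10, and which started at 50 (a p-value of 1e-05). Intervals given with shares are exact binomial 95% intervals and cover counting error only. No test was made, since regions and genes of 1 list are not replicates.

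The sequences around C/EBP words in regions near the members are shown first, in mm9 and on the plus strand. Capitals mark the C/EBP word TTGCNNAA, read on either strand, and each stretch reaches 60 bases to both sides of the word nearest to the region's centre. They are all 7 regions near the members with a score of at least 80 that held the word. The strongest regions of Irf8, Ngp, Fcgr2b and Fcgr3, Lcn2 and Mmp8 did not hold it and are not among them. Each sequence is named after the member it was joined to, which need not be its nearest gene. The region printed for Fcgr3 lay 89262 bp upstream of Fcgr3, in intron 1 of its nearest gene, Sdhc. The region printed for Ltf lay 90119 bp upstream of Ltf, with Tdgf1 as the nearest gene.
Gfi1, score 1104.93, chr5:108178356-108178483: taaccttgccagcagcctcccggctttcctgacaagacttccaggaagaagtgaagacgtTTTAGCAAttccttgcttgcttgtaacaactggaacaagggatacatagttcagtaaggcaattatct
Fpr1 and Fpr2, score 202.62, chr17:18037874-18038001: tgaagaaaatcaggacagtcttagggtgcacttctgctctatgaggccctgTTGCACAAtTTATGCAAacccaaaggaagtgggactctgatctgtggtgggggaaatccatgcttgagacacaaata
Srgn, score 171.5, chr10:61972013-61972140: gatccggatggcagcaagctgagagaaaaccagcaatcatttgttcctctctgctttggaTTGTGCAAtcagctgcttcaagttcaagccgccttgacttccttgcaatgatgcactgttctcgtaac
Irf8, score 91.74, chr8:123210136-123210263: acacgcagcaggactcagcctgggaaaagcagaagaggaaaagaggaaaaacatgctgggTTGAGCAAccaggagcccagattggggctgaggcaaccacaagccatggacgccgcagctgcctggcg
Fcgr3, score 88.0, chr1:173078574-173078701: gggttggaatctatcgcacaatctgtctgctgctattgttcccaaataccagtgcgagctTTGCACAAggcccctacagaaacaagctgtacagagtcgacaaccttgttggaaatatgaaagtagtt
Lcn2, score 82.51, chr2:32279637-32279764: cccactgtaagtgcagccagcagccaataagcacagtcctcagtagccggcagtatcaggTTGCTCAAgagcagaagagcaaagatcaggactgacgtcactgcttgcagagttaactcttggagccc
Ltf, score 80.59, chr9:110831679-110831806: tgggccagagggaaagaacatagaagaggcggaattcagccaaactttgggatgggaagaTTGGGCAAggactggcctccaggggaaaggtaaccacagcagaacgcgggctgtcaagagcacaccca
The region shared by the formyl peptide receptor genes held the word TTGCACAA and, 1 base further on, TTATGCAA, at 6 and 3 bp from its centre. The word of the Gfi1 region lay 175 bp from the centre, outside the window of 150 bp to each side that was used for counting.

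As a group, the effector genes stood close to the background in how often a candidate region lay near them. Of the 32 members, 26 had at least 1 region within 100 kb (81.2%, 63.6 to 92.8%), against 79.2% of all protein-coding genes. The number of regions per member ranged from 0 to 6 with a median of 2, which was also the median of all genes. The highest score per member had a median of 72.7 when members without a region were counted as 0, and that of all genes was 77.3. A score of at least 100 was reached at 10 members (31.2%, 16.1 to 50%), against 27.7% of all genes. The members lay in gene-richer surroundings, with a median of 5 other coding TSSs within 100 kb against 3 for all genes.

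At the upper end of the scores the effector genes, chosen with earlier results of these data known, lay above the background share. A region with a score of at least 200 was found near 5 members (15.6%, 5.28 to 32.8%), against 5.38% of all protein-coding genes, and the interval just included that share. These were Gfi1, Irf8, Ngp, Fpr1 and Fpr2, and the last pair shared 1 region. With members that share a region counted once, 4 of 27 remained. Gfi1 and Irf8 are regulators rather than effectors, and without them 3 of 30 effector genes (10%, 2.11 to 26.5%) had such a region. The members next to the limit were Fpr1 and Fpr2 at 202.62, just inside, and Fcgr2b and Fcgr3 at 194.87, just outside. With a limit of 300, 1 member was left, Gfi1, against 3.18% of all genes.

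**Figure D1:**
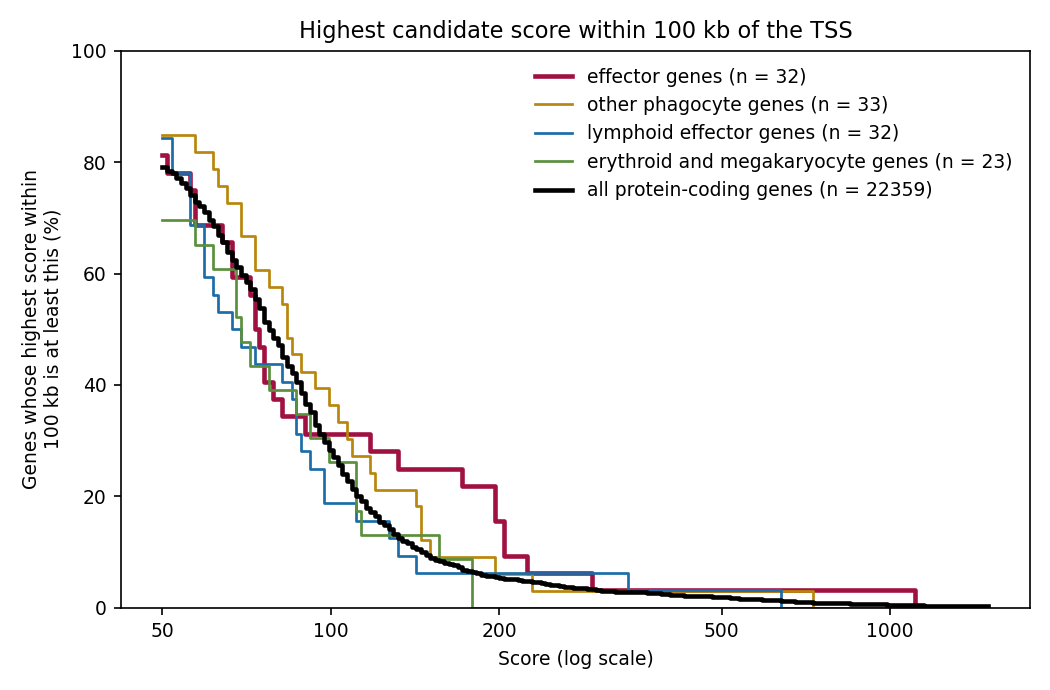
Share of genes (y axis, %) whose highest candidate score within 100 kb of the TSS was at least the value on the x axis (log scale), for the 32 effector genes, 3 comparison lists and all 22359 protein-coding genes. Below a score of 100 the curves of the effector genes and of all genes crossed, at 200 they stood at 15.6% against 5.38%, and 1 gene, Gfi1, was left beyond 300.

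Gfi1, a zinc finger repressor needed for the neutrophil lineage, had the strongest region of all members. The study's introduction also names GFI-1 among factors of hematopoietic stem cells, as one that appears to act only in adults. It spanned chr5:108178211-108178977, 23769 bp upstream of the Gfi1 TSS, in intron 19 of the neighbouring gene Evi5, and Gfi1 was the gene with the nearest TSS. Its score of 1104.93 was rank 22 of all candidates, and 0.438% of coding genes had a highest score of at least this size. The other Gfi1 region, 85180 bp downstream of the TSS, had a score of 53.65, close to the lower end of the list. The annotation used here gives Gfi1 no coding transcript, so its TSS is that of its longest transcript.

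Irf8, the interferon regulatory factor that directs progenitors towards monocytes and dendritic cells and away from granulocytes, had 6 regions, a number that 2.11% of coding genes reached. The strongest, chr8:123225832-123226626, lay 34029 bp upstream of the TSS with a score of 290.94, rank 205 of all candidates. It lay inside intron 1 of Gm20388, a predicted gene that spans the locus, and Irf8 was its nearest gene. The other 5 regions scored 65.53 at 81421 bp and 91.74 at 50036 bp upstream, and 65.91, 51.61 and 50.09 at 32665, 56522 and 98634 bp downstream. The 2 regulators thus had their strongest region 20 to 35 kb upstream, outside their own transcribed sequence, and none of their 8 regions lay within 5 kb of a TSS of theirs.

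The centres of these 2 regions, 70 bases to each side, are given because they belong to the strongest members and held no C/EBP word. Capitals mark the ETS word AGGAAG (or CTTCCT) and would mark the RUNX word TGTGGT (or ACCACA), TTGCNNAA and the looser TTACNNAA on either strand.
Gfi1, chr5:108178524-108178664: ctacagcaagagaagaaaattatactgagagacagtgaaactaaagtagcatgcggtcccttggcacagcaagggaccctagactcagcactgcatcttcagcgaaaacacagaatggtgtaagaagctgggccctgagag
Irf8, chr8:123226159-123226299: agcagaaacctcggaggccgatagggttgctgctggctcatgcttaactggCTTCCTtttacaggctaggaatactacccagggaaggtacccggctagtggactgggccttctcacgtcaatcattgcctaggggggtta
The Irf8 centre held 1 ETS word, 17 bp from the centre, and the whole Irf8 region held 3 ETS and 2 RUNX words and no C/EBP word. The Gfi1 centre held none of these words, and the whole region held 1 C/EBP, 3 ETS and 2 RUNX words, the nearest being the looser word TTCAGTAA at 126 bp. These are descriptions of the letters in the windows, and they say nothing about which protein was bound there.

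**Figure D2:**
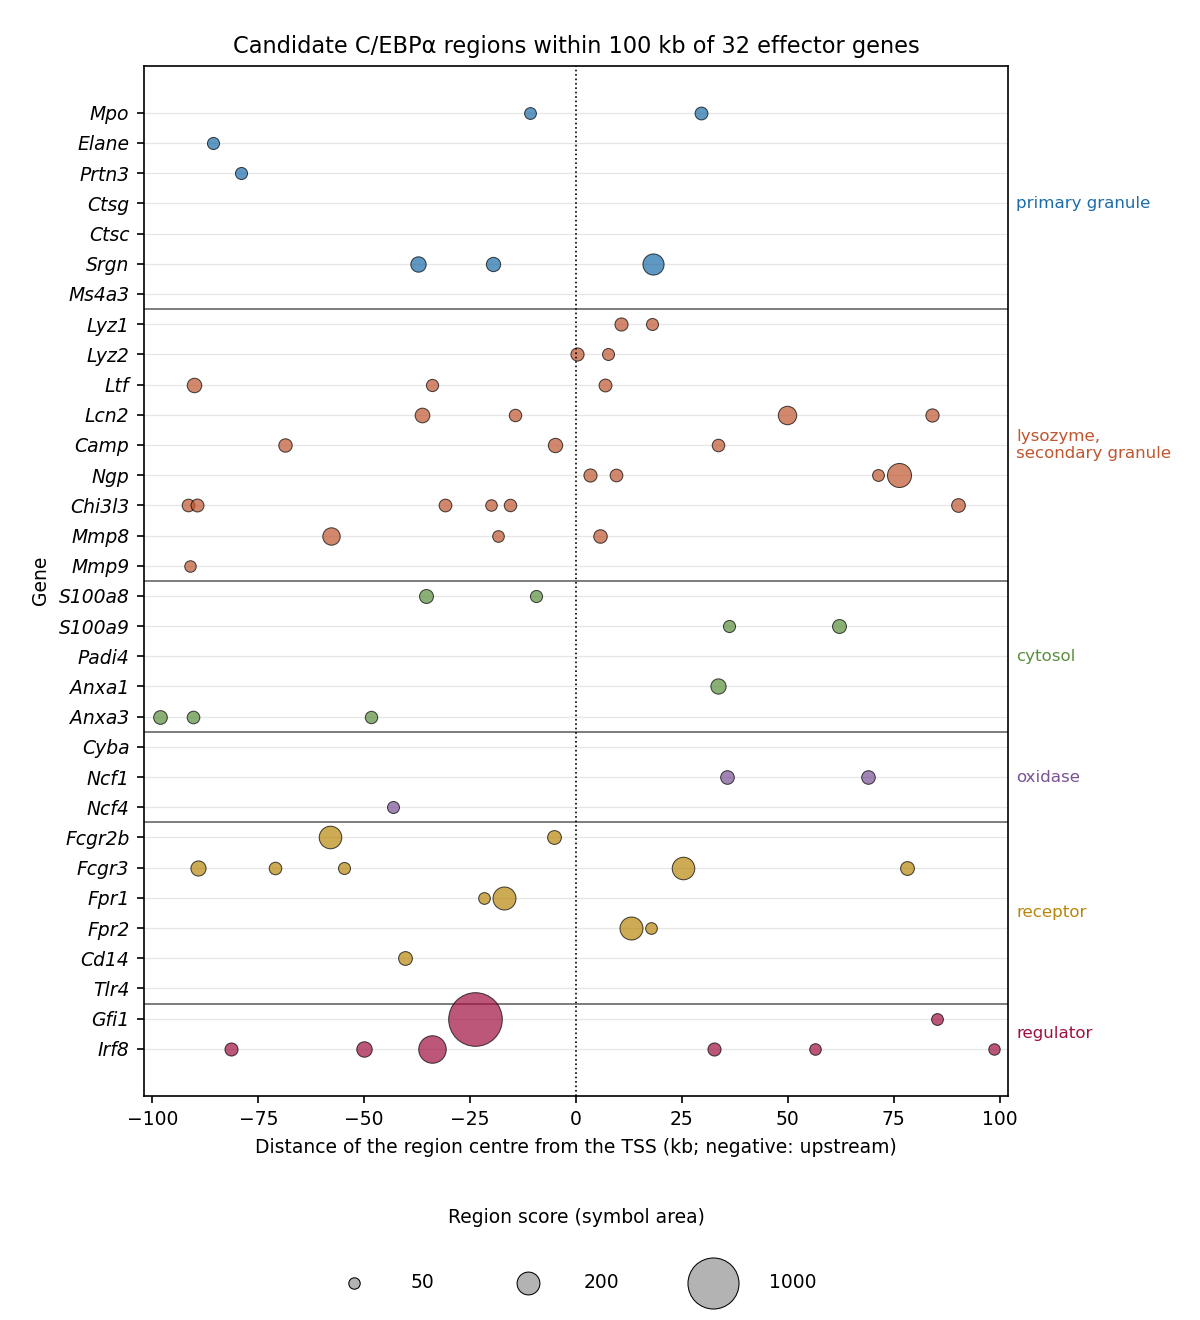
Candidate regions within 100 kb of the TSS of the 32 genes, grouped by role. Each circle is a region at its signed distance from the TSS (x axis, kb, negative values upstream), its area is proportional to the score, and regions shared by neighbouring genes appear in both rows. The largest circle is the Gfi1 region at 1104.93, most circles lie between 50 and 100, and 6 rows are empty.

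The genes grouped here as primary granule genes, among them those of the proteases and the peroxidase of azurophil granules, had a median of 1 region per gene. The oxidase genes had the same median. Of the 7 genes in the primary granule group, to which Ms4a3 was also assigned, 4 had a region within 100 kb (57.1%, 18.4 to 90.1%). This stood against 79.2% of all coding genes, and the interval included that share. None had a score of at least 200 (0 to 41%), against 5.38% of all genes. The median of the highest score was 56.2, against 77.3. Mpo, which encodes myeloperoxidase, had a region of 53.81 at 10867 bp upstream and a region of 63.52 at 29569 bp downstream, the latter in intron 1 of Lpo, its paralog. Elane (neutrophil elastase) and Prtn3 (proteinase 3) shared their only region, 56.19, which lay 85693 and 78995 bp upstream in intron 1 of Palm. Ctsg (cathepsin G), Ctsc (cathepsin C, which activates the granule proteases) and Ms4a3 had no region, the nearest centres being 139857, 228358 and 102971 bp away. Ms4a3 thus missed the window by little.

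Srgn, the proteoglycan core to which granule proteases bind, was the exception among them. Its region at chr10:61971625-61972593 scored 171.5, the highest of a region inside a member's own transcribed sequence, in intron 1, 18090 bp downstream of the TSS. The word TTGTGCAA lay 33 bp from its centre, and 6.89% of coding genes had a highest score of at least this size. Its other 2 regions scored 78.02 and 90.62, at 19640 and 37412 bp upstream.

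All 9 genes for lysozymes and for secondary and tertiary granule proteins had at least 1 region (66.4 to 100%), and the interval included the 79.2% of all coding genes. They had 1 to 6 regions per gene and a median highest score of 78.8. Lyz2, which encodes the lysozyme of macrophages and neutrophils, had the region nearest to a TSS, 169 bp downstream with its centre in coding exon 1. This region, chr10:116718804-116719612, scored 66.16, so that 62.4% of all candidates scored as high or higher, and 1.03% of coding genes had a centre as near. Lyz1, next to it, was joined to the same region at 10716 bp. The second region that Lyz1 and Lyz2 shared scored 55.24, and 66.3% of its 32-base words occurred elsewhere in the genome, against 11.8% in the first. The part of the Lyz2 region upstream of the TSS is given on the gene's strand because it is the only promoter among the members at which a candidate was centred. Capitals mark the same words as in the regulators' centres.
Lyz2, chr10:116719378-116719612, minus strand: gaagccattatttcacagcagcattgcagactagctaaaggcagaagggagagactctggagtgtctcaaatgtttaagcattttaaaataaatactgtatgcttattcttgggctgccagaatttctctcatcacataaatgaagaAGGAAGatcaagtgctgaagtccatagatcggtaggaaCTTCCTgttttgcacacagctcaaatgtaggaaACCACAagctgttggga
These 235 bases held 2 ETS words and 1 RUNX word, and the whole region held no C/EBP word.

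Ngp, which encodes neutrophilic granule protein, was the only other member with a centre within 5 kb, at 3274 bp downstream with a score of 66.27. A further region of 61.91 lay at 9524 bp. Its strongest region, chr9:110398043-110398771 with a score of 221.88, lay 76153 bp away in coding exon 8 of Kif9, which was also its nearest gene, and held 2 ETS words, 1 RUNX word and no C/EBP word. A centre within 5 kb was thus found for 2 of the 32 members (6.25%, 0.766 to 20.8%), against 8.8% of all genes. Camp, the cathelicidin gene, and Fcgr2b, the inhibitory Fc receptor gene, lay just outside that distance, with centres at 5033 and 5098 bp upstream and scores of 78.82 and 73.2.

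Most regions of the other secondary granule genes scored under 100. Lcn2 (lipocalin 2, which binds bacterial siderophores) had 4 regions from 59.24 to 130.47, the strongest in intron 5 of Dnm1 at 49855 bp downstream. The Lcn2 region of 82.51 at 36381 bp upstream held TTGCTCAA 2 bp from its centre. Ltf (lactoferrin) had 3 regions from 56.83 to 80.59, of which 1, with a score of 63.15, lay in its own coding exon 9. Mmp8, the neutrophil collagenase gene, had 3 regions, the strongest at 116.46, 57802 bp upstream and 1725 bp from the TSS of Mmp10. The gelatinase gene Mmp9 had 1 region of 50.88 at 91027 bp. Chi3l3 (Ym1) had 6 regions, as many as Irf8, but they scored 51.01 to 72.23, and 5 of them had more than 30% of their 32-base words repeated in the genome.

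None of the 5 calprotectin and other cytosolic genes had a region with a score of 100 (0 to 52.2%), against 27.7% of all coding genes. S100a8 and S100a9, the subunits of calprotectin, shared both of their regions, which scored 56.2 and 74.61 and lay 9496 and 35388 bp upstream of S100a8. The nearer one held TTATGCAA at 80 bp from its centre and 6 ETS words. Anxa1, the gene of an anti-inflammatory annexin, had 1 region of 89.18 at 33632 bp with 7 ETS words. Anxa3 had 3 regions of 58.78 to 72.12, all within introns of Fras1, and Padi4, whose product citrullinates histones in extracellular traps, had none, its nearest centre lying 138293 bp away. Among the subunits of the phagocyte NADPH oxidase, Ncf1 had regions of 70.97 and 71.65, Ncf4 had 1 of 55.31, and Cyba had none, its nearest centre lying 104165 bp away.

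The receptor genes had a median highest score of 194.9, the largest of the effector roles. A score of 100 was reached at 4 of 6 (66.7%, 22.3 to 95.7%), against 27.7% of all coding genes, and the interval included that share. The median and this count rest on 2 regions that were each shared by a pair of genes. The region of Fpr1 and Fpr2, which encode formyl peptide receptors, spanned chr17:18037757-18038111 with a score of 202.62. It lay 17030 bp upstream of Fpr1 and 13082 bp downstream of Fpr2, in intron 1 of their family member Fpr3, and Gm7535 had the nearest TSS. It was the only region near the members with a score of at least 200 that held a C/EBP word within 150 bp of its centre. The region of the Fc receptor genes Fcgr2b and Fcgr3, chr1:172963917-172964594 with 194.87, was intergenic and lay 57998 bp upstream of Fcgr2b and 25278 bp downstream of Fcgr3. A further Fc receptor gene, Fcgr4, had the nearest TSS at 15205 bp, and the region held no C/EBP word. Cd14, the lipopolysaccharide co-receptor gene, had 1 region of 73.21 at 40382 bp, with Dnd1 as the nearest gene. Tlr4, the lipopolysaccharide receptor gene, had none, its nearest centre lying 216422 bp away.

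The regions near the members were on the whole weaker than the candidates of the list, apart from the few strong ones. The 57 regions had a median score of 65.9, against 73.8 for all candidates, and 14.0% of them scored at least 100, against 20.3%. In contrast, 4 of them (7.02%) scored at least 200, against 2.06%. These were the strongest regions of Gfi1, Irf8 and Ngp and the region shared by Fpr1 and Fpr2. The contrast thus rests on 4 regions, among them those of both regulators. Of the 57 regions, 32 were centred in introns, 19 between genes, 4 in coding exons and 2 in 3' UTRs, and 4 lay in the gene of a member. A member was the nearest gene for 26 of them, and for 7 of the 26 members with a region the strongest one had that member as its nearest gene. These were Srgn, Lyz2, Camp, Anxa1, Anxa3, Gfi1 and Irf8. Neither of these counts has a share over all genes beside it here, so whether they are low or high cannot be told. Restricted to candidates nearest to the gene itself, 13 members had a region (40.6%, against 37.2% of all genes), and 2 members, Gfi1 and Irf8, had 1 with a score of at least 200 (6.25%, against 1.35% of all genes). Since 10 members shared 9 regions with each other, the members are not independent of each other.

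Per length of sequence, the regions of the members were densest between 5 and 25 kb from the TSS. In this band 15 of 32 members had a region (46.9%, 29.1 to 65.3%), against 30.2% of all genes, and the interval included that share. The density was 1.64 regions per 100 kb of sequence, against 0.923 for all genes. With members that share a region counted once, the band held 13 of 27 (48.1%, 28.7 to 68.1%). Of the lysozyme and secondary granule genes, 8 of 9 had a region there (88.9%, 51.8 to 99.7%), all but Mmp9. In the primary granule group it was 2 of 7 (28.6%, 3.67 to 71%), Mpo and Srgn. These intervals overlapped, and Lyz1 and Lyz2 were both counted on regions that they share. From 25 to 50 kb the share was 46.9% against 36.0%, and from 50 to 100 kb 50% against 57.7%. The nearest centre lay at a median of 28972 bp from the TSS, against 39295 bp for all genes. The bands were set after the distances were known.

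**Figure D3:**
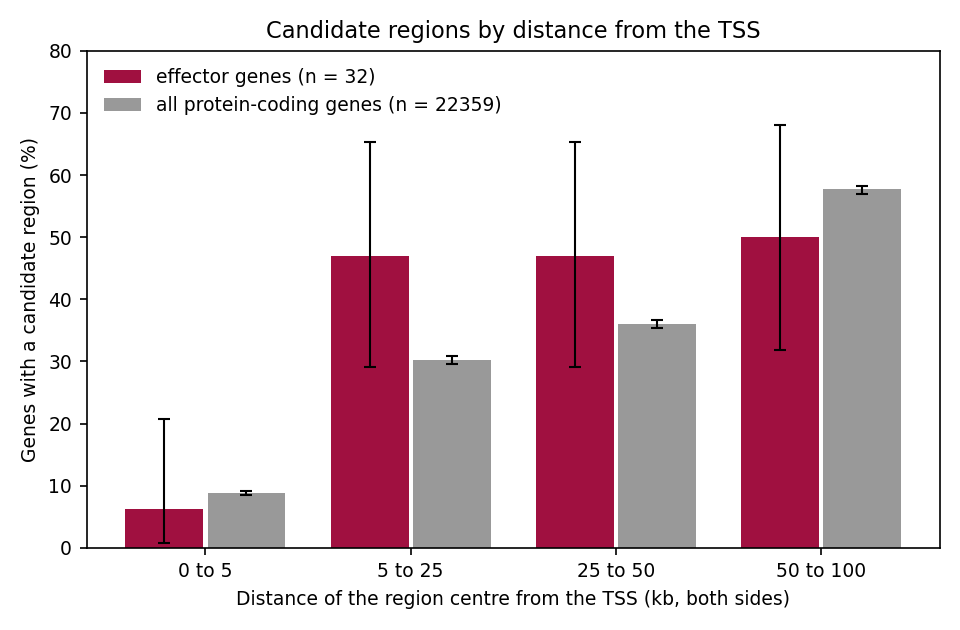
Share of genes (y axis, %) with a candidate centre in each band of distance from the TSS (x axis, kb, both sides), for the 32 effector genes and all 22359 protein-coding genes. Error bars are exact binomial 95% intervals for counting error only. The effector genes stood at 46.9% against 30.2% between 5 and 25 kb, with an interval that reached down to 29.1%, and at 6.25% against 8.8% within 5 kb.

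Of the 57 regions near the members, 10 held the C/EBP word no further than 150 bp from their centre (17.5%, 8.75 to 29.9%), against 14.2% of all candidates. In windows of the same length 1000 bp to both sides of these regions the word stood in 10.5%, and in those of all candidates in 12.3%. Among all candidates the share rose with the score, from 12.2% under 100 to 63.3% at 200 and above. The flanks held the word in 12.2% and 12.1% in these classes. Under 100 it was thus no more frequent at the centres of all candidates than beside them. Near the members, 8 of 49 regions under 100 held it (16.3%, 7.32 to 29.7%), against 11.2% of their flanks. At 200 and above 1 of 4 held it, and 4 regions are too few to set this share apart from 63.3% (0.631 to 80.6%). The ETS word stood in 38.6% of the regions near members and in 34.9% of all candidates, and the RUNX word in 28.1% and 23.2%. The full palindrome TTGCGCAA was not in any of the 57 windows, which allows a share of up to 6.27%, and was in 0.883% of all.

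**Figure D4:**
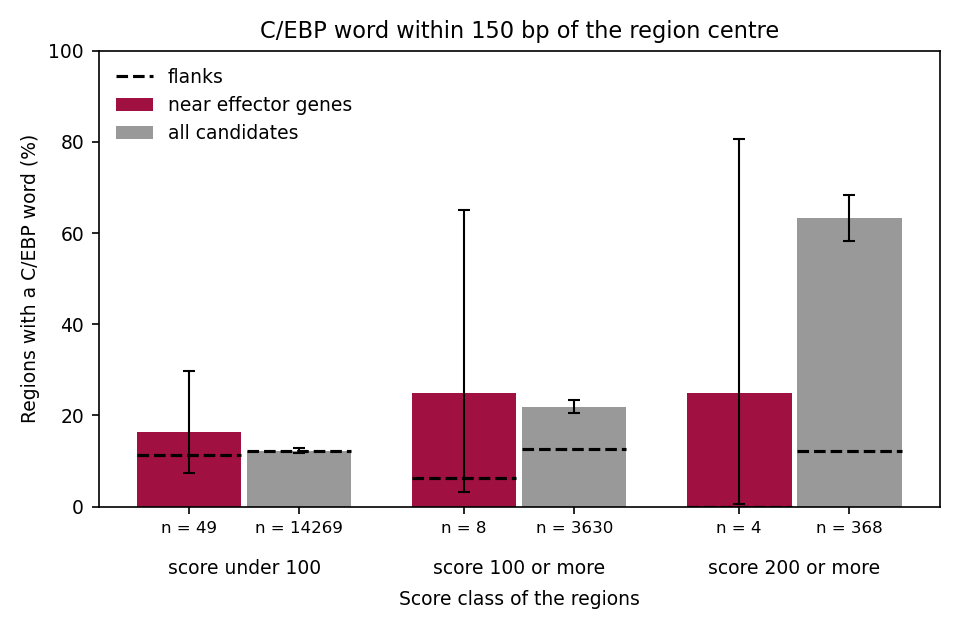
Share of regions (y axis, %) with TTGCNNAA within 150 bp of the centre, by score class (x axis, the class of 100 or more includes that of 200 or more), for regions near the effector genes and for all candidates. Error bars are exact binomial 95% intervals, and dashed lines give the share in windows 1000 bp to both sides. All candidates with a score of 200 or more stood at 63.3%, the 4 near effector genes at 25% with an interval from 0.631 to 80.6%.

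Lists of genes of other mature blood cells, also chosen with earlier results known, were counted in the same way, to see how the effector genes compared with them. Of 33 other phagocyte genes, 28 had a region within 100 kb, 12 reached a score of 100 and 2 a score of 200. These were Cd68, a macrophage lysosomal glycoprotein gene, with 727.82 at 5246 bp upstream, and Lrg1 with 228.46 at 78226 bp. Eif4a1 and D17Wsu104e were the nearest genes of these regions. Some regions of this list were also joined to members, such as that of 194.87 near Fcgr4, so this list and the members are not independent. Of 32 lymphoid effector genes, 27 had a region and 2 reached 200, Klrb1c (NK1.1) with 634.17 at 50344 bp and Cd247 (the T cell receptor zeta chain) with 338.55 at 88005 bp. The nearest genes of these regions were Klrb1b and Rcsd1. Of the 23 erythroid and megakaryocyte genes found, 16 had a region and none reached 200, which allows a share of up to 14.8%. The share of genes with any region was thus 81.2% for the effector genes, 84.8% for the other phagocyte genes, 84.4% for the lymphoid and 69.6% for the erythroid and megakaryocyte genes, with intervals that overlapped. At a score of 100 the shares were, in the same order, 31.2%, 36.4%, 18.8% and 26.1%, with overlapping intervals. At a score of 200 the shares were 15.6%, 6.06%, 6.25% and 0%, again with overlapping intervals, and for the effector genes 10% without the regulators.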

How the data were processed

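ChIP-seq for C/EBPα was performed by the authors on sorted LSK cells, and 1 of 13 samples had a processed list here. Per the labels and the study's methods, reads were mapped to mm9 with Bowtie (0.12.8 in the labels of the library) and regions were called with MACS (1.4.2) against an IgG mock. The labels also name bedtools 2.16.2. The deposited score is the negative log10 of the p-value from MACS, multiplied by 10. The list precedes the authors' later filters on peak height, on both libraries and by inspection. These filters kept only a small part of the candidates. Which regions near the members passed them was not examined here. Whether the call used 1 library or several together is not given in the sources used here, and reads that map to several places could thin out at repeated sequence. Read numbers are not in the list, and the mapped reads given in the study were not used.

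Regions were joined to GENCODE vM1 genes on NCBIM37 (mm9) by the distance of their centre to the TSS of the coding transcript with the longest span (for Gfi1, its longest transcript). The limits were 100 kb, 5 kb and scores of 100 and 200. Nearest genes were taken among the coding genes and Gfi1. Words were searched on both strands within 150 bp of the centre. Repeated sequence is the share of a region's 32-base words found elsewhere in mm9. Intervals are Clopper-Pearson at 95%, and no test was made. The counting was tested on simulated data. Members and lists were chosen with earlier results of these data known. By rule, values were given in full for members with a score of at least 200, a centre within 5 kb or no region, others in ranges and examples. Genes of the comparison lists were named from a score of 200. Of the comparison genes, 4 were not used here. Alternatives were other windows, limits, TSSs, distances and words. Python 3.11.15, numpy 2.4.6, pandas 2.3.3, scipy 1.17.1, pysam 0.24.0, numba 0.67.0, matplotlib 3.10.9 and samtools 1.23.1 were used.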

Additional observations from a re-analysis of the deposited data

How the results depend on the processing

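Of 58 values recomputed under alternatives, 42 stayed within their counting interval or within 1.5 times the main count, and 16 moved. With a window of 25 kb, 15 members had a region (46.9% against 36.1% of all genes), and the median number of regions and the median highest score were 0. In this window 3 members had a score of at least 200 (9.38% against 1.7% of all genes). These were Gfi1 and the pair Fpr1 and Fpr2, which shared 1 region. With only candidates of a score of at least 100, 10 members had a region (31.2% against 27.7%), the medians of number and highest score were again 0, and the median nearest distance was 232369 bp against 219124 bp for all genes. With only candidates nearest to the gene, 13 members had a region (40.6% against 37.2%), 2 had a score of at least 200 (6.25% against 1.35%), and both medians were 0. In each of these settings both medians were 0 for all genes too. A window of 200 kb gave a median of 3.5 regions against 3. A limit of 150 in place of 200 gave 8 members (25% against 8.98%), and a limit of 300 gave 1 (3.12% against 3.18%). With the word TTGCGCAA the share was 0%. Smaller windows, higher limits and longer words keep fewer regions by construction. A further 3 settings were chosen after seeing the data. Counting members that share a region once, 4 of 27 had a score of at least 200 (14.8% against 5.38% of all genes). Leaving out Gfi1, 4 of 31 had one (12.9% against 5.38%). Leaving out candidates with 10% or more repeated 32-base words, 5 of 32 had one (15.6% against 4.91%). No paired analysis was possible because only 1 library had a processed file. Where no region lay near a member, none was detectable at the depth and threshold of the list.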
